A study of Mus musculus with 12 samples.

Results

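The mitochondrial genome of the mouse holds 37 genes, and all 37 had a row in the deposited count tables, out of 55401 gene identifiers. They were taken as every row whose Ensembl identifier maps to a symbol beginning with mt-, and comprise 13 mRNAs, 2 rRNAs and 22 tRNAs. RNA came from cerebellum in 12 libraries, each with an animal number of its own, in 3 groups of 4. WT DMSO mice were wild type and received dimethyl sulfoxide (DMSO) alone. Het DMSO mice were heterozygous Atxn1 154Q/2Q knock-in animals, a model of spinocerebellar ataxia type 1 in which the endogenous gene carries an expanded CAG repeat in all cells that express it, and received the same vehicle. Het Hit 2 mice had that genotype and received the compound Hit 2 at 25 mg/ml in DMSO. All mice, wild-type ones included, were injected intraperitoneally from 18 weeks of age, on 5 days, then after 2 rest days on 5 more, with DMSO under 4 ml/kg. Tissue was taken at 20 weeks under urethane, after perfusion with saline buffer. Libraries were strand-specific, made from 500 ng of total RNA depleted of rRNA. Libraries are named below by animal number.

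Mitochondrial DNA encodes the hydrophobic core subunits of the respiratory chain and of ATP synthase, together with the rRNAs and tRNAs that translate them. Both strands are transcribed nearly end to end into long precursors. The tRNAs lie between the other genes and are cut out, which releases the mRNAs and rRNAs. Most genes read in 1 direction, called the plus strand in the annotation (28 of the 37). The minus strand codes for mt-Nd6 and 8 tRNAs. Cerebellar Purkinje cells and granule cells depend heavily on this system for their energy, and nuclear chromosomes carry old insertions of mitochondrial DNA whose sequence can be nearly identical to the original.

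Depth ranged from 15855751 to 45265719 reads assigned to genes per library. Library 409 (Het DMSO) stood apart in the mitochondrial rows, which took 0.0795% of its gene reads (Wilson 95% interval 0.0787% to 0.0804%) against 1.85% to 2.81% in the others. Library 411 (Het DMSO) stood apart in cell type markers. The summed level of 8 Purkinje cell markers was 519.6 CPM (a read count scaled to a common library size) in 411 and 3029 to 7378 CPM in the others. That of 8 granule cell markers was 172 CPM against 4025 to 9364 CPM, and all 8 oligodendrocyte and all 8 microglia markers were highest in 411. Its tissue label, cerebellum, thus lacked the level of its defining markers that the other 11 libraries had. Results below are given with and without library 409, and where it matters without 411. In bulk tissue, fewer mitochondria-rich cells and less mitochondrial RNA per cell cannot be told apart.

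Which members the tables can measure depends on their sequence, because reads were counted only where they had 1 place in the genome. The 15 mRNAs and rRNAs were cut into all their windows of 100 bases, the read length (the 22 tRNA genes are shorter), and these were looked up in 141730 nuclear transcripts of the GENCODE M21 annotation (build GRCm38). Of these 15 members, 8 shared at least 1 window with a nuclear transcript, and 5 mRNAs shared over 90% of them. These were mt-Co2 (99.5%), mt-Atp6 (99.5%), mt-Co3 (99.9%), mt-Nd3 (97.6%) and mt-Nd4l (98.5%). Next came mt-Nd4 (60.8%), mt-Co1 (30.8%) and mt-Nd2 (3.19%). Most of the sharing was with a block of 7 annotated copies at chr1:24611535-24616197 (GRCm38), all on its minus strand. The start of mt-Co2 (chrM:7013-7696, plus strand) is shown because a read of 100 bases from it has the same letters as a nuclear copy. The copy Gm28661 (chr1:24614885-24615565) has 0 mismatches over these 100 bases, and the copy Gm13341 (chr2:22587291-22587962) has 2, in capitals.
mt-Co2: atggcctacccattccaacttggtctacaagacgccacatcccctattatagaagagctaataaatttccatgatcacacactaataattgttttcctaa
Gm28661: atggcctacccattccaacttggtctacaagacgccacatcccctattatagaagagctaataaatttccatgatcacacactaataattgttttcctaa
Gm13341: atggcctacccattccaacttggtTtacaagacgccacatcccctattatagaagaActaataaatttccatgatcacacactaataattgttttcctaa
Bases 201 to 300 of mt-Co1 (chrM:5328-6872, plus strand) lie outside the block and show the contrasting case. The copy Gm13340 (chr2:22588103-22589647) differs there in 1 base, in capitals, so a read over this window can be placed.
mt-Co1: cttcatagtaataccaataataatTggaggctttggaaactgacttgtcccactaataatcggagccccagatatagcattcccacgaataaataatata
Gm13340: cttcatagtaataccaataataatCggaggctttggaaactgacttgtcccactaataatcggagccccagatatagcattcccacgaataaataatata

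A second limit is overlap between members. In stranded counts, STAR keeps a read pair for a gene only if it touches no other gene on the same strand. The end of mt-Atp8 (chrM:7766-7969) is also the start of mt-Atp6 (chrM:7927-8607) over 43 bases, and the end of mt-Nd4l (chrM:9877-10173) is the start of mt-Nd4 (chrM:10167-11544) over 7. The shared letters are in capitals.
mt-Atp8: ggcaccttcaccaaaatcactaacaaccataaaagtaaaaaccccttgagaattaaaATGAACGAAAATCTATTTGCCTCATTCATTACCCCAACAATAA
mt-Nd4l: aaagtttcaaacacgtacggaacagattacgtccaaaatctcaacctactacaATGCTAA
All 22 tRNA genes are 59 to 75 bases long, shorter than a read, and most lie within a few bases of their neighbours, so a pair from an uncut precursor can touch several genes. The 3 tRNAs with most reads, mt-Tw (chrM:4950-5016, plus strand), mt-Tq (chrM:3772-3842, minus strand) and mt-Tp (chrM:15356-15422, minus strand), are shown with mt-Tf (chrM:1-68, plus strand), 1 of 13 tRNAs with 0 reads in every library.
mt-Tw: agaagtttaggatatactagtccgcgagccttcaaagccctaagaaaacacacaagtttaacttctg
mt-Tq: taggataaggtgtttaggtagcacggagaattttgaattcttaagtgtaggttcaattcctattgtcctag
mt-Tp: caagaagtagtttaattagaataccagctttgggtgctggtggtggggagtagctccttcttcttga
mt-Tf: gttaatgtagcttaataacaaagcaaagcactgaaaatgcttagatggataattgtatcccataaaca

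Complex I, NADH dehydrogenase, takes 7 of the mRNAs, and 5 of them were counted at over 100 CPM in the libraries other than 409. In the wild-type libraries 413, 425, 426 and 431, mt-Nd1 stood at 1622, 1187, 1223 and 1651 CPM. In Het DMSO it stood at 51.2 (409), 1826 (411), 1325 (420) and 1321 (429), and in Het Hit 2 at 1846 (410), 1298 (421), 1167 (422) and 1603 (430). Apart from 409, the groups overlapped throughout. Over the 11 libraries other than 409, mt-Nd5, the largest subunit gene, ranged from 1320 to 2170 CPM with a median of 1604, and mt-Nd2 from 831 to 1266 with a median of 977. For mt-Nd4 the range was 762 to 1164 CPM with a median of 893. The remaining subunit genes, mt-Nd3 and mt-Nd4l, are nearly wholly shared with nuclear copies and reached at most 19 and 53 reads in a library.

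The minus-strand gene of complex I, mt-Nd6 (chrM:13552-14070), was counted at a far lower level. Its levels were 157, 109, 139 and 167 CPM in WT DMSO (413, 425, 426, 431), 17.8, 195, 159 and 161 CPM in Het DMSO (409, 411, 420, 429) and 150, 138, 149.5 and 145 CPM in Het Hit 2 (410, 421, 422, 430). The wild-type libraries spread over the levels of Het Hit 2, and the 3 Het DMSO libraries other than 409 and 431 of WT DMSO were the highest 4. The first 100 bases of mt-Nd6 are shown because its base composition is unlike that of the plus-strand mRNAs above, with many t and g and few c.
mt-Nd6: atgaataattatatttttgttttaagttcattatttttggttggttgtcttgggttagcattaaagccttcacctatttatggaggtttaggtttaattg

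Cytochrome b, the only mitochondrially encoded subunit of complex III, is made from mt-Cytb (chrM:14145-15288). It stood at 2620, 2156, 2149 and 2809 CPM in WT DMSO, at 57.8, 2447, 2211 and 2289 CPM in Het DMSO and at 3006, 2213, 2005 and 2684 CPM in Het Hit 2, with libraries in the order given for mt-Nd6. The 3 Het DMSO libraries other than 409 lay inside the range of either other group. In complex IV, cytochrome c oxidase, mt-Co1 codes for the catalytic subunit. Its levels were 4942, 4098, 4070 and 5210 CPM in WT DMSO, 383, 6508, 4449 and 3965 CPM in Het DMSO and 5589, 4359, 4110 and 4541 CPM in Het Hit 2. Library 411 had the highest level of mt-Co1 and library 409 the lowest.

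The other 2 subunits of complex IV and the 2 of ATP synthase (complex V) were almost uncounted. In library 413, for example, mt-Co1 had 4942 CPM and mt-Co2 4.10 CPM. Over the 12 libraries mt-Co2 had 1 to 392 reads, mt-Co3 1 to 313, mt-Atp6 2 to 294 and mt-Atp8 0 to 29, with the lowest of each in library 409. Transcripts of mt-Co2 and mt-Co3 are known as abundant ones in brain, and their level cannot be read from these counts. mt-Atp8 shares no window with an annotated nuclear transcript. The stretch of 233 bases between 2 of the copies, chr1:24614652-24614884, where the corresponding insert would lie, has 0 annotated genes and was not searched.

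The rRNAs are mt-Rnr1 (12S, chrM:70-1024) of the small mitochondrial ribosomal subunit and mt-Rnr2 (16S, chrM:1094-2675) of the large one. Depletion kits of the kind named in the labels also remove mitochondrial rRNA, so these levels are what depletion left. mt-Rnr2 stood at 8973, 7496, 8202 and 9872 CPM in WT DMSO, 285 (409), 8784, 8964 and 11843 CPM in Het DMSO and 11638, 9039, 7615 and 11194 CPM in Het Hit 2. mt-Rnr1 stood at 524, 561, 962 and 810 CPM, then 19.3 (409), 637, 562 and 1526 CPM, then 748, 554, 551 and 1084 CPM. The highest library of each group in mt-Rnr1 was 426, 429 and 430.

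**Figure D1:**
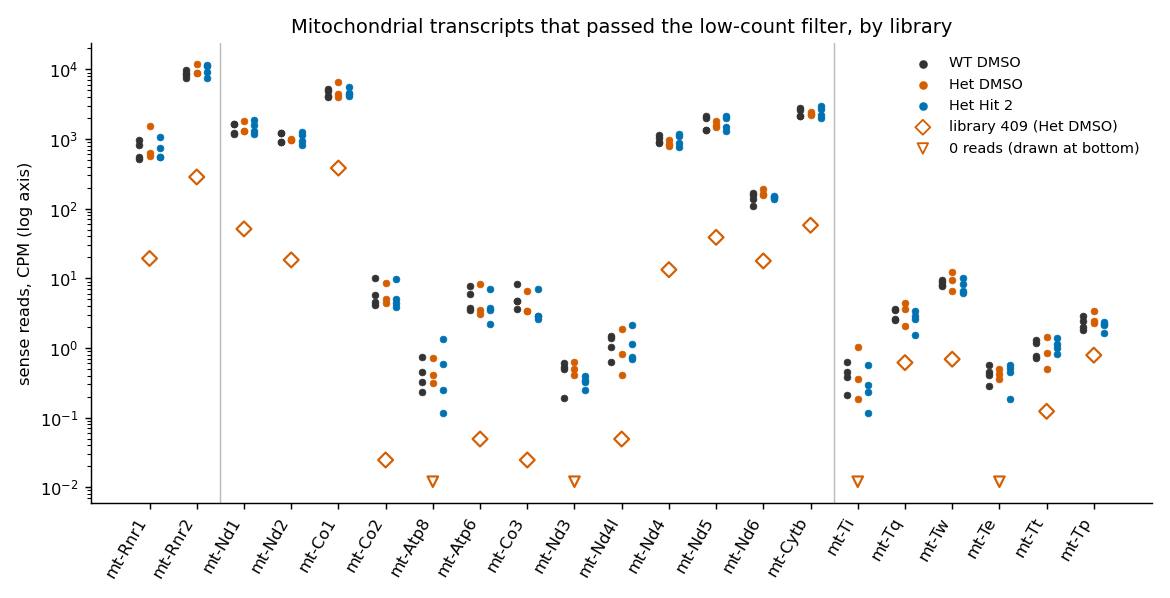
Sense reads of the 21 members that passed the low-count filter, as CPM on a log axis, 1 point per library, coloured by group, with rRNAs left, mRNAs in the middle and tRNAs right. Open diamonds mark library 409, open triangles its members at 0 reads; library 409 is the lowest point for each member. Apart from 409, the groups overlap in each comparison except for mt-Nd3 and mt-Nd6 between Het Hit 2 and Het DMSO.

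Per kb of annotated gene length, the scale on which genes can be compared, the order in WT DMSO was led by mt-Rnr2 at 5459 ± 646 CPM per kb (SD, n = 4). It was followed by mt-Co1 (2964 ± 377), mt-Cytb (2127 ± 292) and mt-Nd1 (1485 ± 261), all in CPM per kb, and neighbours in this order did not overlap between their 4 libraries. mt-Nd2 (1023 ± 173), mt-Nd5 (933 ± 225), mt-Rnr1 (748 ± 218) and mt-Nd4 (714 ± 93.8) came next. Each of these 4 overlapped its next neighbour, save that mt-Nd4 lay above mt-Nd6 (276 ± 48.5) in all 4. The order mt-Rnr2, mt-Co1, mt-Cytb, mt-Nd1, mt-Nd2 held within each of the 11 libraries other than 409. In library 409 mt-Co1 (248 CPM per kb) lay above mt-Rnr2 (180), and mt-Nd1 (53.5) above mt-Cytb (50.5).

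Counting only the windows that no nuclear transcript shares raised mt-Co1 and mt-Nd4 relative to the other genes. Per 1000 unshared windows, mt-Co1 stood at 4580 ± 583 CPM in WT DMSO (n = 4), above mt-Cytb at 2329 ± 319. mt-Rnr2 (5823 ± 689) then overlapped mt-Co1 in WT DMSO and lay above it in 10 of the 11 libraries, the exception being 411. mt-Nd4 stood at 1960 ± 257 and came to lie above mt-Nd1 (1656 ± 292) in 10 of the 11 libraries other than 409. The 5 mRNAs with over 90% of their windows shared were 1.31 to 9.07 CPM per kb on average in WT DMSO, against 276 to 2964 CPM per kb for the 7 mRNAs with less sharing other than mt-Atp8.

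**Figure D2:**
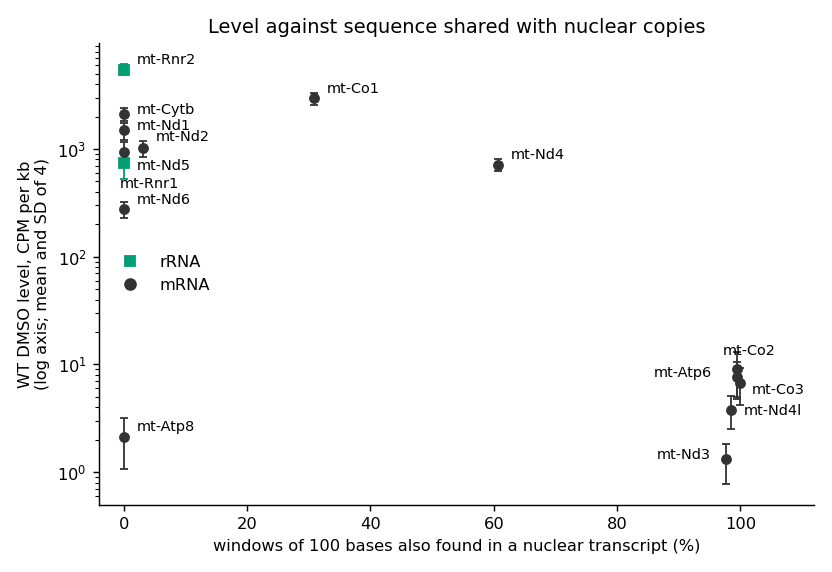
Level in WT DMSO (CPM per kb, log axis, mean and SD of 4 libraries) against the percentage of each gene's 100-base windows that also occur in an annotated nuclear transcript, for the 13 mRNAs and 2 rRNAs. The 5 mRNAs at 97.6% to 99.9% lie under 10 CPM per kb, as does mt-Atp8 at 0%.

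The nuclear copies themselves were nearly empty in library 409. Summed over all 22 copies found by alignment, all of them in the tables, their reads came to 0.887 CPM in 409 and 25.1 to 81.4 CPM in the others. Of those with the most reads, Gm13340 stood at 0.369 CPM in 409, with a median of 12.5 CPM over the others, and Gm13341 at 0 reads with a median of 4.82. Gm10925, a copy of bases 1 to 678 of mt-Atp6, stood at 0.123 CPM and a median of 4.64, and Gm29216, a copy of the end of mt-Co1, at 0.0985 and 2.97. Gm28661 (0.0739 and 2.86) and Gm28439, a copy of the start of mt-Nd4 (0.0246 and 2.80), followed the same order. Whether these reads came from the nuclear copies or from mitochondrial RNA was not tested.

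Of the tRNAs, 9 had reads and 6 passed the low-count filter. The highest was mt-Tw, which carries tryptophan, with 6.18 to 12.4 CPM in the 11 libraries other than 409. mt-Tq, for glutamine, had 1.53 to 4.44 CPM and mt-Tp, for proline, 1.66 to 3.38. mt-Tt, mt-Te and mt-Ti, for threonine, glutamate and isoleucine, stayed at or under 1.46 CPM. mt-Tm, mt-Ta and mt-Ty, at 110, 21 and 33 reads over all 12 libraries, did not pass. The 13 others had 0 sense reads in each library, which allows at most 0.0690 to 0.187 CPM of countable reads per library (3 reads, counting error only). Pairs left out for touching a same-strand neighbour are not covered by that limit. Reads of a tRNA here need not be mature tRNA, which such libraries capture poorly.

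Strand was read from the tables themselves. Nuclear genes on the plus strand had 94.0% to 95.1% of their reads in the sense column, and those on the minus strand 93.9% to 95.2%, so the same column holds sense reads for genes of either strand. Sense reads were therefore used for mt-Nd6 too, and its antisense reads, which lie on the plus strand, are given beside them. In the 11 libraries other than 409, mt-Nd6 had more antisense than sense reads, at 60.8% (411) to 75.8% (410) antisense. Antisense levels were 282 to 505 CPM, with a median of 336, against the sense median of 150 CPM. Its neighbour mt-Nd5 (chrM:11742-13565), on the opposite strand, had 13.4% to 22.2% antisense reads. In the same 11 libraries mt-Cytb had 1.76% to 3.30%, mt-Nd4 1.95% to 5.21% and mt-Co1 0.348% to 0.595%. Antisense reads of mt-Rnr2 were 0.0179% to 0.0505%, and those of mt-Rnr1 0.0628% to 0.229%. The rate of wrong-strand reads in each gene was not tested.

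Of the 8 minus-strand tRNAs, 6 had more antisense than sense reads in all 11 libraries, as mt-Nd6 did, namely mt-Tq, mt-Ta, mt-Ty, mt-Ts1, mt-Te and mt-Tp. The others, mt-Tc and mt-Tn, did so in 10 and 6 libraries, with 0 sense reads in each. For mt-Tp the antisense share was 83.2% to 88.1%, and for mt-Tq 61.7% to 87.4%. mt-Ts1 had 0 sense reads and 13 to 104 antisense reads in those libraries. Adding both strands of every member, RNA of the minus strand made up 2.23% to 3.62% of mitochondrial reads in the 11 libraries. A pair that touches members on opposite strands counts for each, so it can enter this sum more than once.

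Library 409 differed from the rest by gene and by strand. All 21 members tested were lowest in 409, where 32.0% of all tested genes were. Relative to the median of the other 11 libraries, sense reads were 67.1-fold lower for mt-Nd4, 53.2-fold for mt-Nd2, 41.4-fold for mt-Nd5 and 39.6-fold for mt-Cytb. The fold was 33.1 for mt-Rnr1, 31.5 for mt-Rnr2 and 25.9 for mt-Nd1, and 11.6 for mt-Co1. mt-Nd6 was 8.42-fold lower, mt-Tq 4.70-fold and mt-Tp 2.86-fold. For the members with 3 reads or fewer in 409, mt-Co2 was at least 67.4-fold lower, mt-Atp6 at least 50.7-fold and mt-Co3 at least 48.8-fold, with the floor at 3 reads in that library. Summed, the 13 mRNAs were 19.8-fold lower, the rRNAs 31.3-fold and the tRNAs 6.64-fold.

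**Figure D3:**
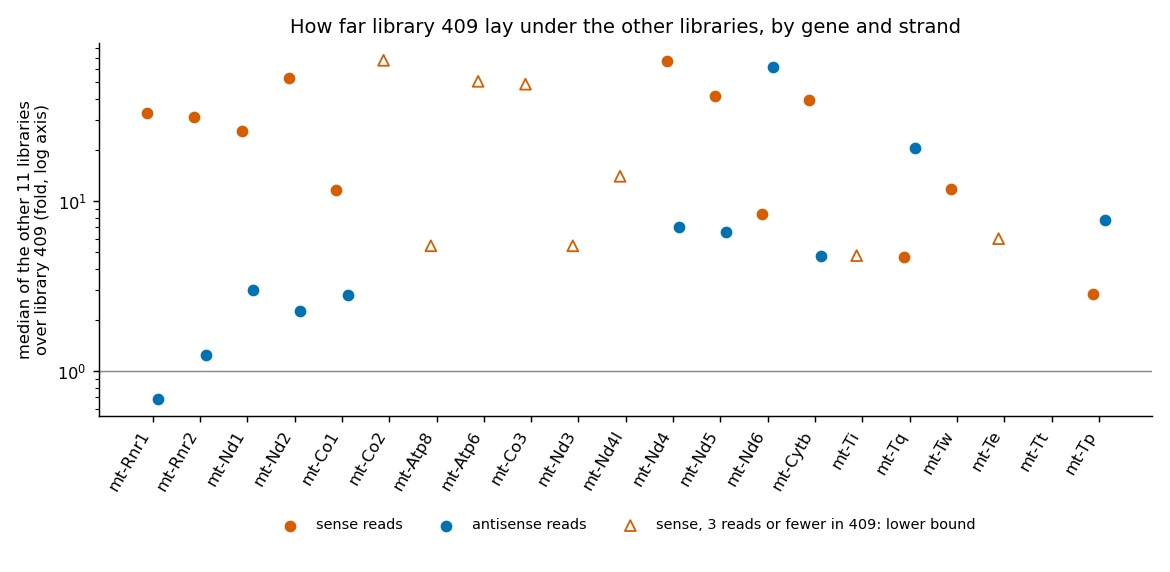
Fold by which library 409 lay under the median of the other 11 libraries (log axis), for sense and antisense reads of the 21 members tested. Points need at least 20 reads in 409, open triangles are lower bounds for sense reads, and the line marks no difference. The 8 plus-strand mRNAs and rRNAs with at least 20 reads lie at 11.6 to 67.1-fold for sense and 0.685 to 7.09-fold for antisense reads.

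Read by strand, RNA of the plus strand was 26.7-fold lower in 409 and RNA of the minus strand 5.69-fold. The minus strand took 11.5% of mitochondrial reads there (Wilson 95% interval 11.2% to 11.8%), above the 3.62% of the next library, 411. For mt-Nd6 the order of the strands turned over. In library 409 it had 721 sense and 223 antisense reads, so that 23.6% were antisense (Wilson 95% interval 21.02% to 26.4%). mt-Nd5 turned over the other way, with 1574 sense and 2150 antisense reads (57.7% antisense, interval 56.1% to 59.3%). The antisense share of mt-Nd2 was 36.9% in 409, against 1.68% to 4.84% elsewhere, and that of mt-Cytb 16.6%. Antisense reads of mt-Rnr1 were not lower in 409, at 1.45 CPM against a median of 0.996 CPM and a highest value of 1.46 CPM. Among the 13 mRNAs, mt-Co1 took 66.0% of reads in 409 (interval 65.4% to 66.6%) and 34.3% to 45.3% elsewhere, and mt-Cytb 9.96% against 17.0% to 20.3%.

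**Figure D4:**
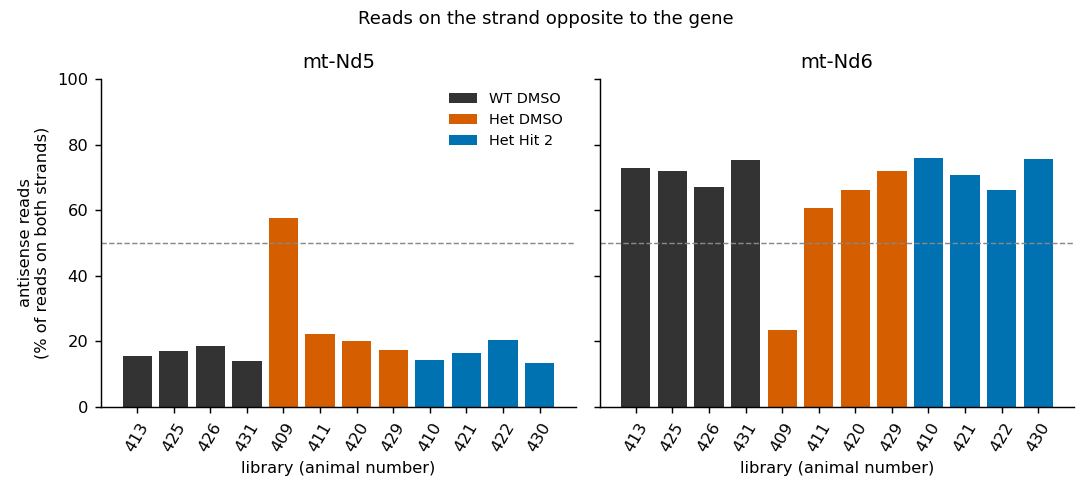
Antisense reads as a percentage of reads on both strands of mt-Nd5 (left) and mt-Nd6 (right), 1 bar per library, coloured by group, with a dashed line at equal strands. In library 409 the share of mt-Nd5 is 57.7%, against 13.4% to 22.2% elsewhere, and that of mt-Nd6 is 23.6%, against 60.8% to 75.8%.

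Nuclear genes for mitochondria went both ways in 409, and their summed levels were within or above the range of the other libraries. The summed level of 20 nuclear subunits of the same complexes was 4360 CPM in 409 and 2556 to 3806 CPM in the others. Over 12 genes that track mitochondrial mass, such as Cs and Vdac1, the sum was 1392 CPM against 1267 to 1820 CPM. Genes that transcribe and maintain mitochondrial DNA (20, such as Polrmt and Tfam) summed to 593 CPM against 399.5 to 447 CPM. Those that process and degrade its RNA (26, such as Lrpprc and Pnpt1) summed to 831 CPM against 668 to 735 CPM. Single genes were lowest of the 12 libraries in 409 for 4 of the 20 subunits, 4 of the 12 mass markers, 8 of the 20 transcription and maintenance genes and 10 of the 26 processing genes, and highest for 9, 4, 6 and 15. Over all tested genes, 32.0% were lowest and 28.3% highest in 409. Purkinje cell markers (6515 CPM) lay inside the range of the others, and granule cell markers (9364 CPM) above their highest value of 6831 CPM. The 8 astroglia markers summed to 1821 CPM in 409, under the 2062 to 2579 CPM of the others. The 8 nuclear-retained RNAs, Malat1 among them, summed to 13537 CPM against 21373 to 28008 CPM, and red blood cell genes to 3.62 CPM against 4.19 to 67.0 CPM. In the same library multimapping reads were 7.01% of all reads, above 4.08% to 5.91%. Their part in the low mitochondrial level was not tested.

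The first comparison, Het DMSO against WT DMSO, sets the knock-in genotype against wild type. Sex, read from Xist above 10 CPM, was not balanced, as it marked libraries 425 and 426 of WT DMSO and no knock-in library. No member passed. Of the 21 members tested 0 were called by edgeR's quasi-likelihood test at a Benjamini-Hochberg adjusted p of 0.05 over all genes, where 0.00516% of 19378 genes were. None had an unadjusted p under 0.05 either, which 7.11% of all genes had. DESeq2 called 0 of the 22 members to which it gave an adjusted p, and 0.181% of all such genes. In 0 members did the 4 libraries of one group lie wholly above (1.94% of all genes) or below (2.45%) those of the other. All 21 estimates were negative, from -0.67 to -0.06 with a median of -0.33 (log2 fold change; median over all genes 0.05), and standard errors were 0.36 to 0.92. Without library 409 the estimates ran from -0.75 to 0.37 with a median of 0.03, 11 of 22 negative, again with 0 called (0.0203% of all genes) and 0 at an unadjusted p under 0.05 (9.24%). Still 0 members separated the groups upward (3.86% of all genes) or downward (5.40%).

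For mt-Cytb the estimate was -0.47 ± 0.69 (SE; edgeR adjusted p 0.786; exact permutation p 0.314) with all libraries, and -0.08 ± 0.16 without 409 (adjusted p 0.828). Means were 2434 ± 334 CPM in WT DMSO and 1751 ± 1133 in Het DMSO (SD, n = 4 each), or 2316 ± 120 without 409 (n = 3). For mt-Co1 it was -0.26 ± 0.55 (adjusted p 0.858; exact permutation p 0.686) and 0.11 ± 0.19 without 409, with means of 4580 ± 583 and 3826 ± 2546 CPM, or 4974 ± 1350 without 409. For mt-Nd1 it was -0.33 ± 0.66 (adjusted p 0.848; exact permutation p 0.657), and 0.06 ± 0.20 without 409. The estimate of mt-Atp6, which rests on few reads, was -0.49 ± 0.82 (adjusted p 0.817), and -0.07 ± 0.47 without 409. The sign of mt-Co1 and mt-Nd1 thus turned when library 409 alone was left out, and in neither fit did the interval leave out 0. Without both 409 and 411 the sign of mt-Co1 and mt-Nd1 was negative, as with all libraries. That of mt-Atp6 was then positive (0.19).

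The rRNAs gave -0.21 ± 0.68 for mt-Rnr2 (adjusted p 0.912; exact permutation p 0.8286) and -0.06 ± 0.77 for mt-Rnr1 (adjusted p 0.978; exact permutation p 0.743). Without 409 these were 0.19 ± 0.19 and 0.34 ± 0.38. mt-Nd6 stood at -0.11 ± 0.48 (adjusted p 0.937; exact permutation p 0.914), and at 0.25 ± 0.13 without 409 (adjusted p 0.514; exact permutation p 0.229), the smallest unadjusted p among members in that fit (0.0797). Without 409, the 95% intervals of mt-Cytb (-0.43 to 0.28), mt-Rnr2 (-0.24 to 0.61) and mt-Nd6 (-0.04 to 0.54) bound the size of change that these libraries leave possible. These fits still hold library 411. Without both 409 and 411 the estimates were 0.26 for mt-Rnr2, 0.54 for mt-Rnr1 and 0.15 for mt-Nd6, and 0 members were called (0.0895% of all genes).

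**Figure D5:**
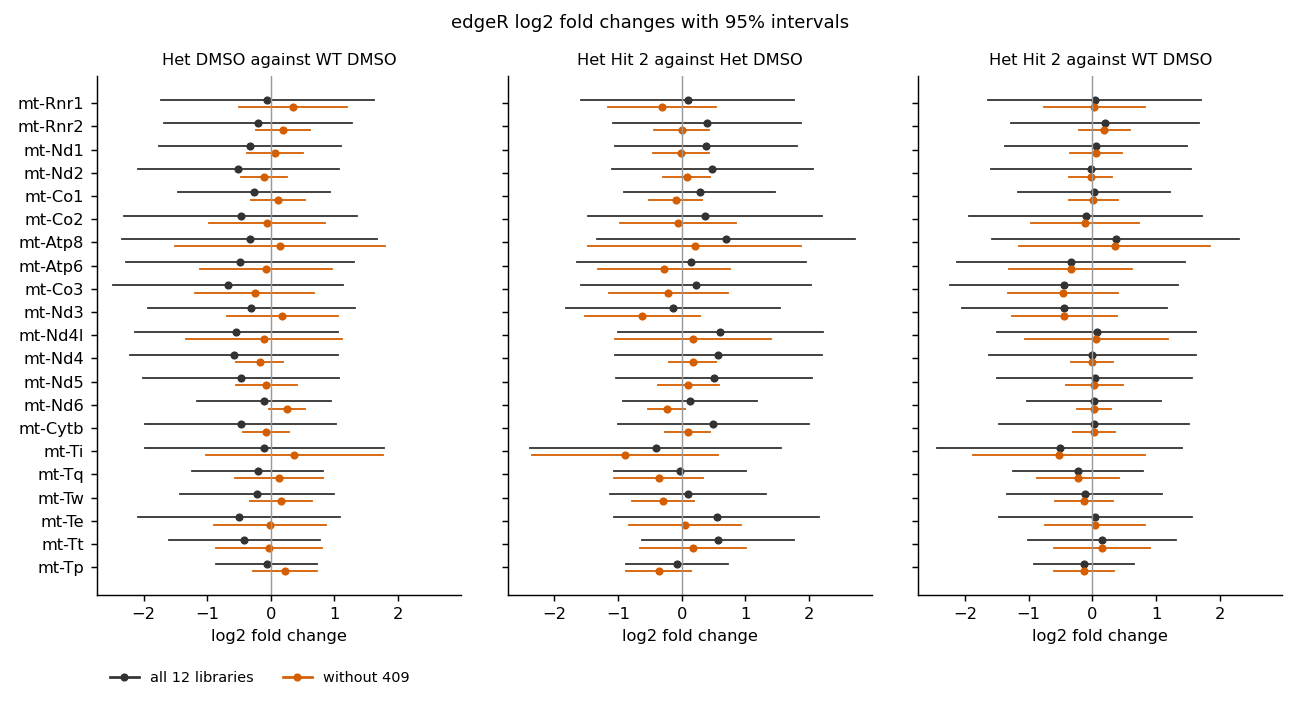
Log2 fold changes of the 21 members from edgeR in the 3 comparisons, with 95% intervals, over all 12 libraries (black) and without library 409 (orange). Every interval crosses 0, and those of mt-Cytb in Het DMSO against WT DMSO narrow from -1.98 to 1.03 with 409 to -0.43 to 0.28 without it.

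The comparison for the compound, Het Hit 2 against Het DMSO, shares the Het DMSO libraries, 409 included, with the one above. Again 0 of 21 members were called by edgeR, as were 0% of all genes, and 0 had an unadjusted p under 0.05 (1.55% of all genes). DESeq2 called 0 of 24 members and 0% of all genes. In 0 members did the groups lie apart, higher (0.635% of all genes) or lower (0.392%). Estimates ran from -0.41 to 0.70 with a median of 0.37, 17 of 21 positive (median over all genes -0.04). Without 409 they ran from -0.89 to 0.20 with a median of -0.07, 9 of 22 positive, with 0 at an unadjusted p under 0.05 (2.09% of all genes). mt-Cytb was at 0.50 ± 0.69 (adjusted p 0.898; exact permutation p 0.343) and at 0.10 ± 0.16 without 409. mt-Co1 was at 0.28 ± 0.55 and -0.10 ± 0.19, mt-Nd1 at 0.39 ± 0.66 and -0.01 ± 0.20, mt-Rnr2 at 0.40 ± 0.68 and 0.00 ± 0.19, and mt-Rnr1 at 0.10 ± 0.77 and -0.31 ± 0.38, with and without 409. mt-Atp6 was at 0.15 ± 0.82 and -0.27 ± 0.47. Without both 409 and 411 the estimates of mt-Co1 and mt-Nd1 were positive, as with all libraries. Those of mt-Rnr2 (-0.079), mt-Rnr1 (-0.51) and mt-Atp6 (-0.54) were then negative.

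Of the 21 members, 2 separated the groups once 409 was left out, mt-Nd6 and mt-Nd3, both lower in Het Hit 2. mt-Nd6 was 138 to 150 CPM in the 4 Het Hit 2 libraries and 159 to 195 CPM in the 3 remaining Het DMSO libraries, an estimate of -0.23 ± 0.13 (adjusted p 0.909; exact permutation p 0.0571, the smallest that 3 against 4 libraries can give). mt-Nd3 had 5 to 17 reads in Het Hit 2 and 8 to 15 in those Het DMSO libraries, at 0.247 to 0.391 and 0.404 to 0.626 CPM (exact permutation p 0.0571). Among all tested genes, 1.05% were lower and 1.48% higher without overlap in this set of libraries. The wild-type libraries, at 109 to 167 CPM of mt-Nd6, spanned the Het Hit 2 libraries and overlapped the lower end of Het DMSO, with library 411 above them all.

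In Het Hit 2 against WT DMSO, which leaves library 409 out of both groups, 0 of 21 members were called by edgeR (0.00516% of all genes), 0 had an unadjusted p under 0.05 (1.71% of all genes). DESeq2 gave an adjusted p to 17 members and called 0 of them, against 0.131% of all such genes. Estimates ran from -0.51 to 0.36 with a median of 0.02, 10 of 21 negative. In 0 members did the groups lie apart (2.90% of all genes higher, 3.42% lower). Without 409 in the fit 0 were called (0.0253% of all genes) and 0 had an unadjusted p under 0.05 (3.78%). In the fit of all 12 libraries the standard errors still carry the spread of 409, since all groups share 1 estimate. They were 0.69 for mt-Cytb (estimate 0.03), 0.55 for mt-Co1 (0.02) and 0.66 for mt-Nd1 (0.06), and fell to 0.15, 0.18 and 0.18 once 409 was left out. mt-Rnr2 was at 0.19 ± 0.68 (adjusted p 1.0; exact permutation p 0.286), mt-Rnr1 at 0.04 ± 0.77, mt-Nd6 at 0.03 ± 0.48 and mt-Atp6 at -0.34 ± 0.82. The mitochondrial share of gene reads was 2.16% ± 0.303 in WT DMSO and 2.36% ± 0.442 in Het Hit 2 (SD, n = 4 each), and 2.36% ± 0.203 in Het DMSO without 409 (n = 3).

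The nuclear genes that run mitochondrial gene expression were not called either. Of 20 genes of mitochondrial DNA transcription and maintenance, 26 of RNA processing and decay, 19 nuclear subunits and 12 mass markers tested, 0 passed edgeR's adjusted p of 0.05 in any of the 3 comparisons, with or without 409. For the knock-in allele the list medians were 0.03, 0.14, 0.29 and 0.24 on the log2 scale, beside 0.05 over all genes, and 0.03, 0.05, 0.22 and 0.15 without 409. In the same comparison the cell type lists had medians of -1.09 for Purkinje cell, -0.35 for granule cell, 0.62 for oligodendrocyte and 0.50 for microglia markers, 0 of them called. Without 409 these medians were -1.10, -0.62, 0.69 and 0.56. The astroglia, choroid plexus and red blood cell lists had medians of -0.19, 0.22 and 0.08, and of -0.20, 0.60 and 0.44 without 409. Summed Purkinje cell markers were 7081 to 7378 CPM in WT DMSO, 519.6 (411) to 6515 CPM (409) in Het DMSO and 3029 to 6086 CPM in Het Hit 2, so that the knock-in libraries all lay under the wild-type ones. How many of all genes lay apart in this way was not counted, and the part of these markers in the list medians was not tested. Library 411 was the highest of the 12 for 9 of 20 nuclear subunits and 8 of 12 mass markers. What share of all genes was highest in 411 was not counted. The 2 genes with the smallest unadjusted p within each list follow. Among the nuclear subunits they were Cox4i1, a subunit of cytochrome c oxidase (0.52 ± 0.19, adjusted p 0.616), and Ndufb8, an accessory subunit of complex I (0.42 ± 0.15, adjusted p 0.616). For transcription and maintenance they were Rnaseh1, which removes RNA primers from DNA (0.37 ± 0.15), and Top1mt, the mitochondrial topoisomerase (0.46 ± 0.20). For RNA processing they were Fastkd3 (0.31 ± 0.14) and Mtpap, the mitochondrial poly(A) polymerase (-0.52 ± 0.26), and among the mass markers the importer Timm23 (0.27 ± 0.12) and the channel Vdac2 (0.22 ± 0.10).

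For the compound, the medians of the 4 lists were -0.01, -0.08, -0.20 and -0.16, beside -0.04 over all genes. Without 409 they were 0.02, -5.87e-05, -0.11 and -0.11, beside -0.01 over all genes. The 2 genes with the smallest p in each list were Ndufb8 (-0.34 ± 0.15), Ndufv1, a core subunit of complex I (-0.42 ± 0.20), Rexo2, an RNA exonuclease (-0.22 ± 0.10), Mtpap (0.41 ± 0.26), Top1mt (-0.36 ± 0.20), Mterf1a (0.57 ± 0.33), Vdac2 (-0.14 ± 0.10) and Timm23 (-0.16 ± 0.12), each with an edgeR adjusted p of 0.898. In Het Hit 2 against WT DMSO the medians were 0.01, 0.03, 0.11 and 0.08, beside 0.02. Those with the smallest p, 2 in each list, were Fastkd3 (0.28 ± 0.14), Elac2, which cuts tRNAs at their 3′ end (0.14 ± 0.13), Atp5c1 (0.15 ± 0.12), Cox6c (0.16 ± 0.15), Dguok (-0.20 ± 0.20), Tk2 (0.21 ± 0.22), Timm23 (0.10 ± 0.12) and Phb2 (0.12 ± 0.15), all with an edgeR adjusted p of 1.0.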

How the data were processed

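The deposited values are raw STAR read counts for each gene and strand, as the file headers show (1 table for each library). FastQC 0.11.9, STAR 2.7.10a and build GRCm39/mm39 are named in the submitters' processing notes. Trimming and the annotation release are not given in the sources used here. Symbols, coordinates and sequences were taken from GENCODE M21 (GRCm38), which matched 55141 of 55401 identifiers and all 37 members. Its coordinates are not on the authors' build. The sense column was used for every gene. Lines that name no gene (unassigned 44.7% to 54.6%, multimapping 4.08% to 7.01%, unmapped 3.70% to 6.53% and ambiguous 0.761% to 1.33% of reads) stayed out of library sizes and tests.

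Counts were fitted with edgeR 4.0.16 (R 4.3.3): filterByExpr (19378 genes), TMM scaling, 1 quasi-likelihood fit of all 12 libraries with 1 coefficient per group, two-sided tests, adjustment over all genes. Each standard error is the log2 fold change over the root of its F value. CPM uses the TMM-scaled sizes. Permutation tests were exact and two-sided on log2 CPM with a prior of 2 reads, over 70 assignments (smallest p 0.0286) or 35 (smallest p 0.0571). The fit was tested on simulated data. DESeq2 1.42.0 was the alternative tool. Windows of 100 bases were matched exactly on both strands, and copies were found with BLAST+ over at least 100 bases. Groups came from the labels, whose animal numbers are all different; they do not say more of the replicates, so p-values measure the spread between these samples.

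Fold changes are printed for the mRNA with the highest level per kb in WT DMSO of each complex, for mt-Nd6 and for the rRNAs. List genes are the 2 with the smallest p per list and comparison, and nuclear copies the 6 with the highest mean. Members and lists were chosen with earlier results of these data known. Intervals and floors cover counting error only, since PCR copies are not independent molecules.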

Additional observations from a re-analysis of the deposited data

Results flagged for a closer look

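Within the groups of 4 libraries, 93 sets of values were checked for 1 library far from the other 3, by the gap to its nearest neighbour relative to the group's range (Dixon's 95% limit). Chance gives such a gap in about 1 of 20 sets, or 4.65 here, and 9 were found. Of these 7 concern library 409 of Het DMSO. The mitochondrial share of gene reads was 0.0795% there, with the next library at 2.13%. mt-Nd2 stood at 18.4 CPM (next 976), mt-Nd4 at 13.3 CPM (next 801) and mt-Cytb at 57.8 CPM (next 2211). RNA of the minus strand was 11.5% of mitochondrial reads (next 3.62%), the antisense share of mt-Nd5 was 57.7% (next 22.2%), and the ratio of mt-Nd6 to mt-Nd5 sense reads was 0.458 (next 0.121). The same ratio was 0.104 in library 426 of WT DMSO, with the next library at 0.0800. mt-Co3 stood at 7.08 CPM in library 430 of Het Hit 2, with the next at 2.92.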

How the results depend on the processing

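No paired analysis was possible because the animal numbers do not recur between groups. In each comparison 0 members were called under every alternative run, and none had an unadjusted p under 0.05 (smallest 0.0519; smallest adjusted p 0.362). The number of all genes called moved from 1 in Het DMSO against WT DMSO to 8 at an adjusted p of 0.1, 18 without 409 and 411, 39 with DESeq2 and 0 with only the compared groups, and ran from 0 to 9 when 1 library was left out. In Het Hit 2 against WT DMSO it moved from 1 to 2 at an adjusted p of 0.1 and with unstranded counts, 90 without 409 and 411, 24 with DESeq2, 4 with no low-count filter, 54 with only the compared groups and 0 with a sex covariate, and ran from 0 to 14.

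Of 483 log2 fold changes of named members under alternatives, 442 kept their sign and 41 did not. In Het DMSO against WT DMSO, leaving out 1 library gave -0.66 to 0.063 for mt-Nd1, -0.64 to 0.11 for mt-Co1, -0.35 to 0.25 for mt-Nd6, -0.82 to 0.34 for mt-Rnr1 and -0.52 to 0.19 for mt-Rnr2. In Het Hit 2 against Het DMSO the ranges were -0.011 to 0.71 for mt-Nd1, -0.095 to 0.65 for mt-Co1, -0.27 to 0.95 for mt-Atp6, -0.23 to 0.36 for mt-Nd6 and -0.31 to 0.86 for mt-Rnr1. In Het Hit 2 against WT DMSO they were -0.076 to 0.15 for mt-Nd1, -0.089 to 0.11 for mt-Cytb, -0.087 to 0.085 for mt-Co1, -0.085 to 0.10 for mt-Nd6 and -0.22 to 0.22 for mt-Rnr1. Without 409 and 411 the signs turned for Het DMSO against WT DMSO in mt-Atp6 (0.19), mt-Nd6 (0.15), mt-Rnr1 (0.54) and mt-Rnr2 (0.26), and for Het Hit 2 against Het DMSO in mt-Atp6 (-0.54), mt-Nd6 (-0.14), mt-Rnr1 (-0.51) and mt-Rnr2 (-0.079). With a sex covariate they turned for Het Hit 2 against WT DMSO in mt-Nd1 (-0.15), mt-Cytb (-0.13), mt-Co1 (-0.13) and mt-Nd6 (-0.15), and for Het DMSO against WT DMSO in mt-Rnr1 (0.040). The sex term, set by Xist above 10 CPM, marks 2 libraries, 425 and 426, both WT DMSO. It cannot be told apart from a difference within that group. The cause of these turns was not tested. The summed members lay 26.0-fold under the others in library 409 on CPM, 28.9-fold as a share of gene reads and 25.9-fold as a share of all reads. The 0 to 9 and 0 to 14 include 9 and 14 genes without library 411. The level per unshared window was added after the data were seen. Low counts limit the 5 shared mRNAs, mt-Atp8 and the tRNAs, at under 100 reads in some or all libraries.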

Other observations

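The 3 libraries with the highest share of unmapped reads, 1 from each group, were 426 (6.53%), 429 (5.85%) and 430 (5.97%), with 4.21% to 4.80% in the others besides 409. The same 3 libraries had the highest mt-Rnr1 (962 to 1526 CPM against 524 to 810), the highest sum of the 5 shared mRNAs (25.9 to 28.0 CPM against 9.69 to 18.4) and the highest sum of the nuclear copies (60.6 to 81.4 CPM against 25.1 to 42.3). They were also highest in mt-Co2, mt-Atp6, mt-Atp8, mt-Co3 and mt-Ti. They overlapped the others in mt-Rnr2 (8202 to 11843 against 7496 to 11638 CPM) and in the sum of the 13 mRNAs (10754 to 13243 against 10357 to 15206 CPM). What joins these measures was not tested, and the share of all genes that set these 3 libraries apart was not counted.

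Library 411, which lacked the level of Purkinje and granule cell markers of the rest, came next after 409 in 4 measures of strand and of proportions among members. mt-Co1 took 45.3% of its mRNA reads (34.3% to 39.7% in the 10 libraries other than 409), the antisense share of mt-Nd6 was 60.8% (66.1% to 75.8%), that of mt-Nd5 22.2% (13.4% to 20.6%), and the minus strand 3.62% of mitochondrial reads (2.23% to 3.32%). Its summed mitochondrial share, 2.44% of gene reads, lay within the range of those 10 libraries.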
